A study of Homo sapiens with 8 samples.

Results

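The genes that encode collagen and laminin chains were followed in N/TERT-2G cells, a human keratinocyte line immortalised with telomerase. Every row of the table whose symbol begins with COL or LAM and has the form of a chain name was taken, which gave 55 of 21510 genes, 43 for collagen chains and 12 for laminin chains. All cells carried an AREG-directed short hairpin RNA (AREG encodes amphiregulin, a ligand of the EGF receptor), and tetracycline switched the hairpin on. Poly(A) RNA was collected after 60 h from 3 groups. The control group had no tetracycline (3 libraries), the Tet group had tetracycline at 1 µg/ml (3 libraries), and the Tet+EGF group had tetracycline at 1 µg/ml with recombinant EGF at 20 ng/ml (2 libraries). Cells were subconfluent and grown in serum-free keratinocyte medium with added calcium chloride. Tetracycline and the hairpin came together in each treated library, so their effects cannot be told apart here.

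Laminins are cross-shaped trimers of 1 alpha, 1 beta and 1 gamma chain, secreted into the basement membrane, the sheet of matrix under an epithelium. The LAMA3 and LAMB3 chains belong to the laminin that anchors basal keratinocytes, which hold it through hemidesmosomes. Collagens are trimers built around a triple helix. Collagen IV forms the network of the basement membrane, collagen VII the anchoring fibrils under it, and collagen XVII spans the keratinocyte membrane in the hemidesmosome, whereas the fibrillar collagens are mainly products of fibroblasts in the dermis.

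Levels are given as RPKM, reads per kilobase of gene and per total reads, so that genes can be compared per length. AREG, the hairpin target, read 189 to 316 RPKM without tetracycline, 6.63 to 16.7 with it, and 17.4 and 20.9 once EGF was added. By their labels, replicates 2 and 3 of control and Tet belong to batch 1, and replicate 1 of each belongs to batch 2 with both Tet+EGF libraries. Where control replicate 1 is left out below, no control is left in the batch of Tet+EGF. The comparison of Tet+EGF with control then runs through Tet. Depth relative to control replicate 1, estimated from the spacing of the lowest values, was 63.4% to 111%. All 6 keratinocyte markers listed (KRT5, KRT14, TP63, CDH1, SFN and PERP) were present, with a summed level of 19448 to 22495 RPKM in control, 28288 to 33040 in Tet and 16061 to 16552 in Tet+EGF. Of these markers 5 rose and 1 fell with Tet, against 26.2% of all tested genes higher and 29.9% lower. Their part in the results below was not tested. Whether replicates came from separate cultures is not in the labels, and a p-value here reflects only how far these libraries scatter, which may be technical. In bulk RNA, fewer cells of a type and less RNA per cell cannot be told apart.

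Of the 55 genes, 26 reached 1 RPKM in at least 2 libraries and were tested, 18 for collagen and 8 for laminin chains. A gene is said to rise or fall when its adjusted p was under 0.05 (limma, Benjamini-Hochberg over 12567 genes). Between Tet and control, 16 of the 26 rose and 6 fell, against a background of 26.2% of all tested genes higher and 29.9% lower. Their median log2 fold change was 0.49, against -0.04 over all tested genes. Between Tet+EGF and Tet, 7 rose and 7 fell, with a background of 9.82% higher and 9.15% lower, and medians of -0.22 for the members and 0.02 for all genes. Between Tet+EGF and control, 11 rose and 0 fell by limma (1 lower, COL17A1, at an unadjusted p under 0.05), with a background of 16.0% higher and 16.2% lower, and medians of 0.40 and -0.01. COL2A1, COL5A1 and COL5A3 reached 1 RPKM only in Tet libraries and so passed the filter through the group where they were high. Of the other 23 genes 13 rose and 6 fell with Tet, 7 rose and 6 fell between Tet+EGF and Tet, and 10 rose and 0 fell between Tet+EGF and control. Medians of these 23 were 0.39, -0.12 and 0.49 in the same order. The 3 comparisons share libraries, so their values are set side by side here and are not independent. All 22 genes called between Tet and control had 1 sign in batch 1 and in batch 2, and the 14 and 11 called in the comparisons of Tet+EGF kept their sign within batch 2.

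**Figure D1:**
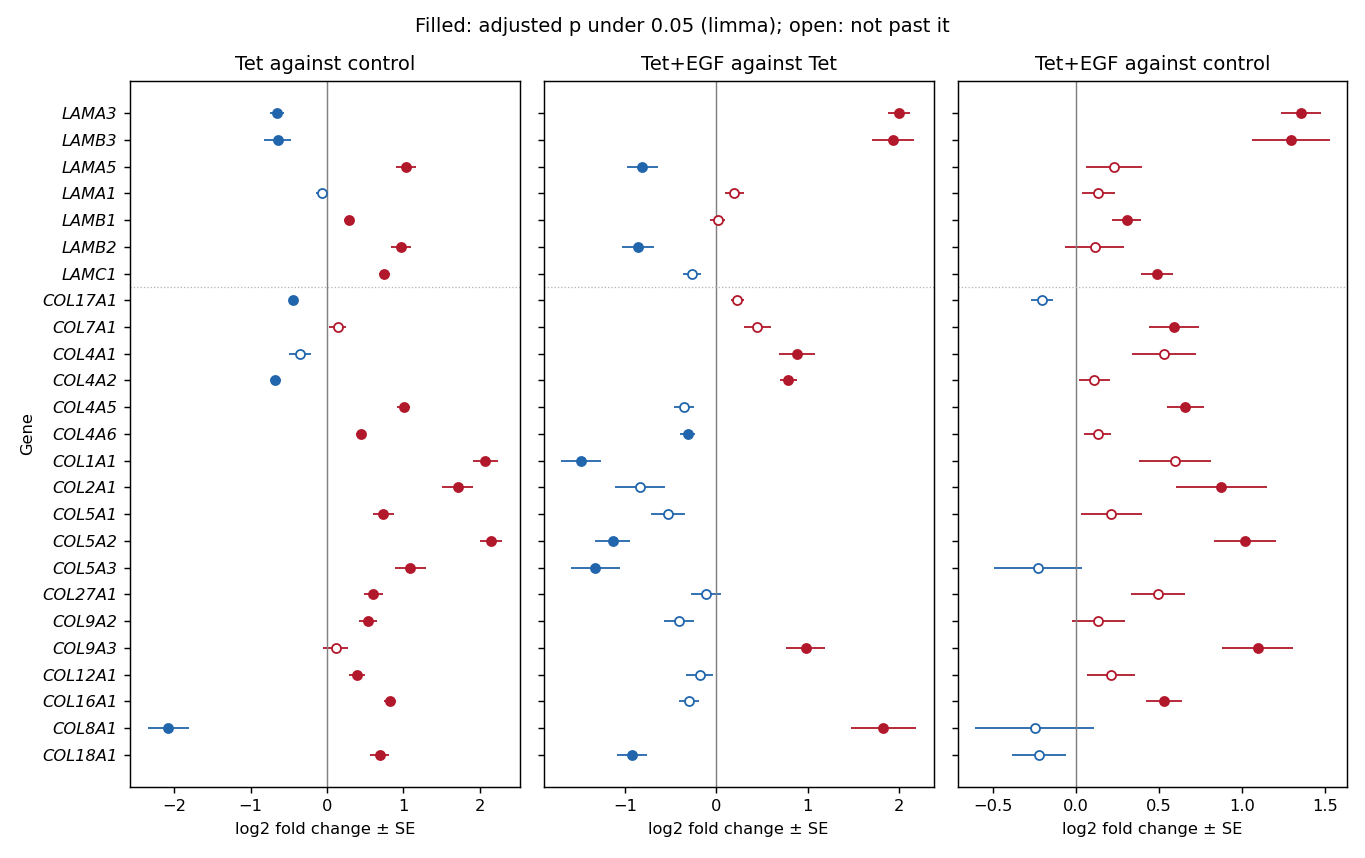
Log2 fold change (x axis, with its standard error as a bar) of 25 tested genes (y axis, laminins above the dotted line) in the 3 comparisons. Filled points have an adjusted p under 0.05 in the limma fit. LAMA3 and LAMB3 lie left of 0 with Tet and near 2 with EGF, and the 6 fibrillar genes from COL1A1 to COL27A1 lie right of 0 with Tet. Of these, COL2A1, COL5A1 and COL5A3 were tested only through their Tet libraries.

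LAMA3 and LAMB3 fell with the hairpin and rose above control with EGF, by similar amounts. LAMA3, an alpha chain gene, read 218, 196 and 211 RPKM without tetracycline, 115, 146 and 139 with it, and 501 and 514 once EGF was added. The 3 groups did not overlap, with Tet lowest and Tet+EGF highest. LAMB3, a beta chain gene, was at 643, 422 and 441 RPKM in control, 266, 344 and 344 in Tet, and 1232 and 1306 in Tet+EGF. The order of the groups was the same, again without overlap, and LAMB3 ranked between 30 and 230 among the 21510 genes of each library.

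Between Tet and control the log2 fold changes were -0.65 for LAMA3 (SE 0.09, limma adjusted p = 0.00101) and -0.64 for LAMB3 (SE 0.18, limma adjusted p = 0.0184). Within batches 1 and 2 they were -0.51 and -0.92 for LAMA3, and -0.33 and -1.27 for LAMB3. The size of the LAMB3 fall thus differed by batch, it was -0.33 without control replicate 1 or without Tet replicate 1, and with no filter on low values it was not called (limma adjusted p = 0.0842). Between Tet+EGF and Tet the values were 2.00 for LAMA3 (SE 0.12, limma adjusted p = 0.000155) and 1.94 for LAMB3 (SE 0.23, limma adjusted p = 0.00202). Within batch 2 alone, with 1 Tet library, they were 2.14 and 2.25. Against control LAMA3 and LAMB3 were higher with EGF by 1.35 and 1.29 (limma adjusted p = 0.000472 and 0.00688). The ratio of LAMB3 to LAMA3 in batch 1 was 2.15 and 2.09 in control and 2.35 and 2.48 in Tet. In batch 2 it was 2.96 in control, 2.31 in Tet, and 2.46 and 2.54 in Tet+EGF. Tet thus lay above control in batch 1 and below it in batch 2.

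**Figure D2:**
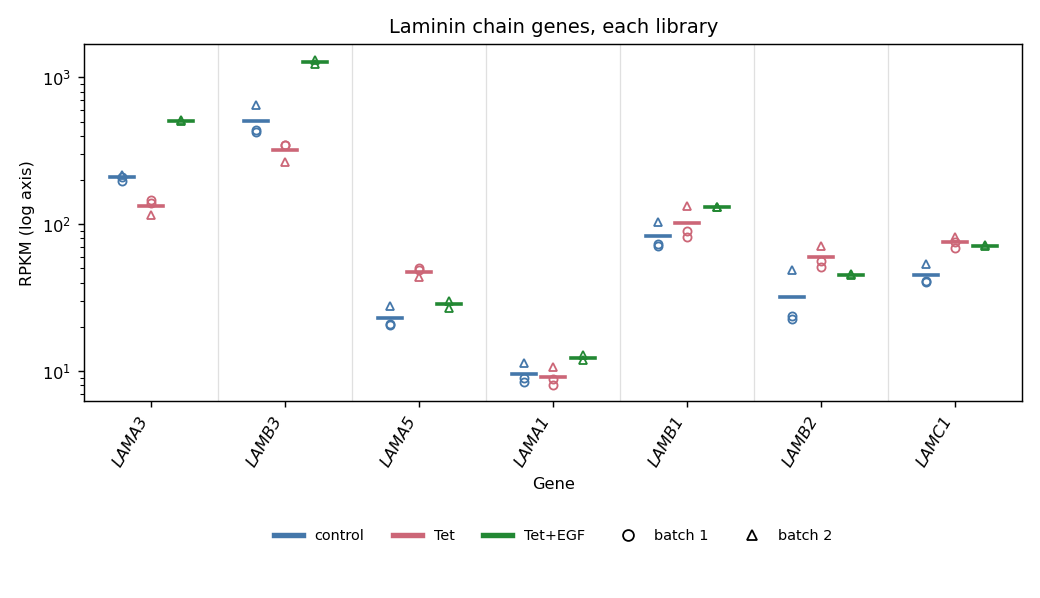
RPKM on a log axis (y) of 7 tested laminin genes (x), 1 point per library, with circles for batch 1, triangles for batch 2 and a bar at each group's mean. LAMA3 and LAMB3 are lowest in Tet and highest in Tet+EGF, while LAMA5 and LAMB2 are highest in Tet.

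Because LAMA3 and LAMB3 moved together, their promoter windows are shown, with the AP-1 motif TGAGTCA (or TGACTCA, the same motif on the other strand) in capitals. AP-1 is a transcription factor dimer of the FOS and JUN families. The windows run from 250 bases before to 50 bases after an annotated start, 5′ to 3′ along the gene, from RefSeq on GRCh38.p14. That of LAMA3 is chr18:23872770-23873069 on the plus strand, and the shown window of LAMB3, 1 of its 3 windows, is chr1:209651325-209651624 on the minus strand.
LAMA3: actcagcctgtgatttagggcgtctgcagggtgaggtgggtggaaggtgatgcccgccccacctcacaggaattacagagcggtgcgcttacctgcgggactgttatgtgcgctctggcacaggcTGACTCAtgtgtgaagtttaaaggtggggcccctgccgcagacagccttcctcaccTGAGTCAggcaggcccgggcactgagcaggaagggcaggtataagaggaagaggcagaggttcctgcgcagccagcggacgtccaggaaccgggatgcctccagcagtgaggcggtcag
LAMB3: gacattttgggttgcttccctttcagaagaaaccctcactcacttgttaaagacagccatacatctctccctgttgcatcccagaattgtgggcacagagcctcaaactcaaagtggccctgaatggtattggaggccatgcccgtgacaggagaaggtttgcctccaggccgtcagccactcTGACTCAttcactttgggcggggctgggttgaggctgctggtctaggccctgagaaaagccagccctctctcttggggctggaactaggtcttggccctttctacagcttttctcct
The LAMA3 window holds the motif at positions -125 and -69 and the LAMB3 window at position -67, counted from the annotated start of each window. Among 54 windows of the 40 members matched these were the only 2 with the motif, 3.70%, against 4.95% of all 35116 windows, shares that were not tested. Of the 3 LAMB3 windows only the shown one, whose start is the furthest downstream, held the motif. The other 15 members had no window in the search, among them COL1A1, COL2A1, COL5A2, COL8A1, COL9A3 and LAMA1. The search left out member windows on 1 chromosome, a limit not set for the background. A match describes the letters and not a bound site.

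LAMA5, LAMB1, LAMB2 and LAMC1 rose with the hairpin. LAMA5, the alpha chain gene of the broadly used laminins of mature basement membranes, was at 27.9, 20.6 and 20.9 RPKM in control, 43.5, 48.7 and 50.7 in Tet, and 26.9 and 30.0 in Tet+EGF. Tet libraries stood above the others. It rose by 1.04 with Tet on the log2 scale (SE 0.13, limma adjusted p = 0.00053), and the batches gave 1.24 and 0.63. LAMA5 fell by 0.81 between Tet+EGF and Tet (SE 0.17, limma adjusted p = 0.0178), by 0.61 within batch 2 and by 1.21 without Tet replicate 1. LAMB2, a beta chain gene known from kidney and neuromuscular basement membranes, was at 49.0, 22.6 and 23.9 RPKM in control, 71.0, 51.2 and 56.0 in Tet, and 45.1 and 45.8 in Tet+EGF. The batch 2 control library was close to the Tet libraries of batch 1. LAMB2 rose by 0.97 with Tet (SE 0.13, limma adjusted p = 0.000883), with 1.19 and 0.53 in batches 1 and 2, and fell by 0.86 from Tet to Tet+EGF (SE 0.18, limma adjusted p = 0.017), by 0.64 within batch 2 and by 1.29 without Tet replicate 1. The calls of LAMA5 and LAMB2 with EGF were lost when either Tet+EGF library was left out, at adjusted p-values of 0.117 and 0.0693 for LAMA5 and 0.0968 and 0.0873 for LAMB2 (limma). With the replicate number as a block the falls were -0.74 for LAMA5 (0.0661) and -0.47 for LAMB2 (0.34), and with no filter on low values the adjusted p was 0.0678 and 0.0686. That block sets Tet+EGF replicate 2, of batch 2, beside libraries of batch 1. LAMB2 was at -0.37 (0.51) without a batch term. Against control, the EGF values of LAMA5 (0.23) and LAMB2 (0.11) were not called, but without control replicate 1 they were 0.63 and 0.55 and called (limma adjusted p = 0.00364 and 0.00526).

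LAMC1, the gamma chain gene of most laminins, was at 53.3, 40.6 and 40.9 RPKM in control, 81.8, 76.1 and 68.8 in Tet, and 70.6 and 72.2 in Tet+EGF. Treated libraries were all above control, and LAMC1 rose by 0.75 with Tet (SE 0.07, limma adjusted p = 0.000178) and stayed higher with EGF than in control, by 0.49 (SE 0.10, limma adjusted p = 0.00938). The difference between Tet+EGF and Tet of -0.26 did not pass (limma adjusted p = 0.106, or -0.40 and 0.0166 without Tet replicate 1). LAMC1 against control was not called when Tet+EGF replicate 1 (limma adjusted p = 0.061) or 2 (0.0709) was left out. LAMB1, a widely expressed beta chain gene, was at 103, 71.0 and 73.9 RPKM in control, 133, 90.3 and 82.2 in Tet, and 131 and 131 in Tet+EGF. Batch separated these libraries more than treatment did. Its rise of 0.29 with Tet (limma adjusted p = 0.00754) was not called with the replicate number as a block (0.29, limma adjusted p = 0.15) or without a batch term (0.309). Against control LAMB1 was higher with EGF by 0.30 (limma adjusted p = 0.0337), a call lost on leaving out any control library, Tet replicate 2 or either Tet+EGF library. It was 0.68 without a batch term (limma adjusted p = 0.0703) and 0.58 with the replicate block (0.0562), and in eBayes without trend it was not called (0.0601). LAMA1, an alpha chain gene best known from embryonic basement membranes, was at 11.4, 8.49 and 8.96 RPKM in control, 10.6, 8.82 and 8.04 in Tet, and 11.9 and 12.8 in Tet+EGF. It passed no test.

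As shares of summed RPKM, LAMA3 and LAMB3 lost ground with the hairpin among the alpha and beta chains. LAMA3 made up 86.4% ± 1.51 of alpha chain RPKM in control and 70.0% ± 1.86 in Tet (SD, n = 3 each), and 92.5% ± 0.346 in Tet+EGF (SD, n = 2). LAMA5 took up 9.55% ± 1.15, 25.1% ± 1.03 and 5.18% ± 0.278 in the same groups. Both shares separated the 3 groups without overlap. LAMB3 was 81.5% ± 0.546 of beta chain RPKM in control, 66.2% ± 8.40 in Tet and 87.8% ± 0.401 in Tet+EGF, with Tet replicate 1 lowest at 56.5%. These shares were not tested, since 3 libraries against 3 or 2 cannot reach an exact p under 0.05.

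**Figure D3:**
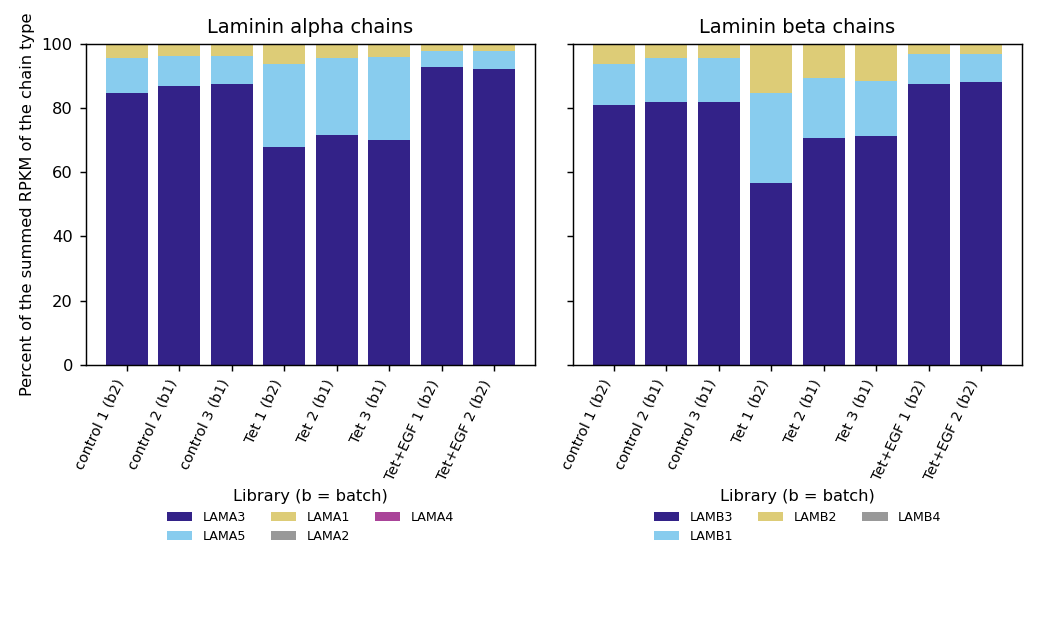
Share of each chain (y axis, percent of the summed RPKM of its chain type) in each library (x axis, with its batch), for alpha and beta chains. LAMA3 and LAMB3 (dark) take the smallest shares in the 3 Tet libraries, down to 68.0% and 56.5%.

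Collagen IV split by gene pair. COL4A1 and COL4A2 encode the chains of the most common collagen IV network and are neighbours on chromosome 13, read in opposite directions. COL4A2 was at 65.04, 69.5 and 68.3 RPKM in control, 45.0, 41.0 and 40.3 in Tet, and 71.4 and 76.8 in Tet+EGF. Tet libraries were below all others. It fell by 0.68 with Tet on the log2 scale (SE 0.07, limma adjusted p = 0.000266) and rose by 0.79 with EGF (SE 0.09, limma adjusted p = 0.00201), while Tet+EGF and control differed by 0.11 (limma adjusted p = 0.406). COL4A1 was at 14.4, 21.2 and 23.1 RPKM in control, 15.7, 14.98 and 14.0 in Tet, and 24.3 and 25.5 in Tet+EGF. The batch 2 control library lay among the Tet libraries. The difference of -0.36 between Tet and control did not pass (limma adjusted p = 0.0746). It was -0.60 in batch 1 and 0.12 in batch 2, and COL4A1 was called at -0.60 without control replicate 1 (limma adjusted p = 0.000302) or Tet replicate 1 (0.000306). COL4A1 rose by 0.88 with EGF (SE 0.19, limma adjusted p = 0.0211), by 0.64 within batch 2, and by 1.36 without Tet replicate 1. That call was lost without Tet replicate 2 (limma adjusted p = 0.0523) or either Tet+EGF library (0.098 and 0.116), with the replicate block (0.079), without a batch term (0.0572) or with no filter on low values (0.0792). Against control its EGF value of 0.53 did not pass (limma adjusted p = 0.077), but without Tet replicate 1 it was 0.77 (0.000455).

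The window of COL4A2, chr13:110307034-110307333 on the plus strand of GRCh38.p14 (RefSeq), holds the annotated starts of both genes and is shown for that reason, with the GC box GGGCGG and the CCAAT box in capitals.
COL4A2: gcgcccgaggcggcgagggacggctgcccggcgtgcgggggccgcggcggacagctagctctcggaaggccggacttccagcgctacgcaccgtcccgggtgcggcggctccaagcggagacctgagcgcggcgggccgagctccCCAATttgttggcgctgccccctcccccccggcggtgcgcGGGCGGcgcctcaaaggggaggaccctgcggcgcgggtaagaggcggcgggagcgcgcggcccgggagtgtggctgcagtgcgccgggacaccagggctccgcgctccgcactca
The GC box, searched on both strands, was in 32 of the 54 member windows (59.3%) and 45.0% of all windows, and CCAAT in 16 (29.6%) and 34.6%.

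COL4A5 and COL4A6, the neighbours on the X chromosome that encode a collagen IV network of skin and smooth muscle basement membranes, rose with Tet. COL4A5 was at 12.5, 12.7 and 14.4 RPKM in control, 22.9, 29.8 and 28.6 in Tet, and 18.9 and 18.9 in Tet+EGF. The 3 groups did not overlap. It rose by 1.01 with Tet (SE 0.08, limma adjusted p = 9.67e-05) and was higher with EGF than in control by 0.66 (SE 0.11, limma adjusted p = 0.00513), and the value of -0.35 between Tet+EGF and Tet did not pass (limma adjusted p = 0.07, or -0.51 and 0.014 without Tet replicate 1). COL4A6 was at 16.0, 15.9 and 16.0 RPKM in control, 21.7, 22.03 and 21.9 in Tet, and 17.9 and 17.0 in Tet+EGF. Its libraries within a group lay close together, and it rose by 0.44 with Tet (SE 0.06, limma adjusted p = 0.000978). It fell by 0.31 with EGF (SE 0.08, limma adjusted p = 0.0394), which no longer passed on leaving out replicate 2 or 3 of control or of Tet, or a Tet+EGF library, without a batch term (limma adjusted p = 0.0764), with the replicate block (0.196) or in eBayes without trend (0.0538). COL4A5 and COL4A6 together made up 25.1% ± 1.22 of collagen IV RPKM in control, 46.1% ± 3.31 in Tet (SD, n = 3 each) and 26.9% ± 1.27 in Tet+EGF (SD, n = 2). COL4A3 and COL4A4, best known from the kidney, stayed at or below 0.175 RPKM.

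COL17A1 had the highest level of any collagen gene. It was at 398, 314 and 313 RPKM in control, 301, 233 and 225 in Tet, and 348 and 350 in Tet+EGF, which was 41.7% to 60.9% of all collagen RPKM. Within each batch the Tet libraries were below control. It fell by 0.44 with Tet (SE 0.05, limma adjusted p = 0.000425), and the batches gave -0.46 and -0.40. With EGF the values of 0.23 against Tet (limma adjusted p = 0.0548) and -0.21 against control (limma adjusted p = 0.0558) did not pass. Without Tet replicate 1 both passed, at 0.27 and -0.19, and without control replicate 1 they passed at 0.21 and -0.24. COL7A1, the anchoring fibril collagen gene, was at 82.2, 85.6 and 114 RPKM in control, 95.7, 101 and 111 in Tet, and 121 and 135 in Tet+EGF. Control and Tet overlapped, at a difference of 0.14 (limma adjusted p = 0.328, or 0.27 and 0.0463 without control replicate 3), and Tet+EGF was above both. It was higher with EGF than in control by 0.59 (SE 0.15, limma adjusted p = 0.0241). That call was lost without control replicate 1 (limma adjusted p = 0.0909) or Tet+EGF replicate 1 (0.0725) or 2 (0.131). It was also lost with no filter on low values (limma adjusted p = 0.0874) or without a batch term (0.072). From Tet to Tet+EGF the COL7A1 value of 0.45 did not pass (limma adjusted p = 0.0844).

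**Figure D4:**
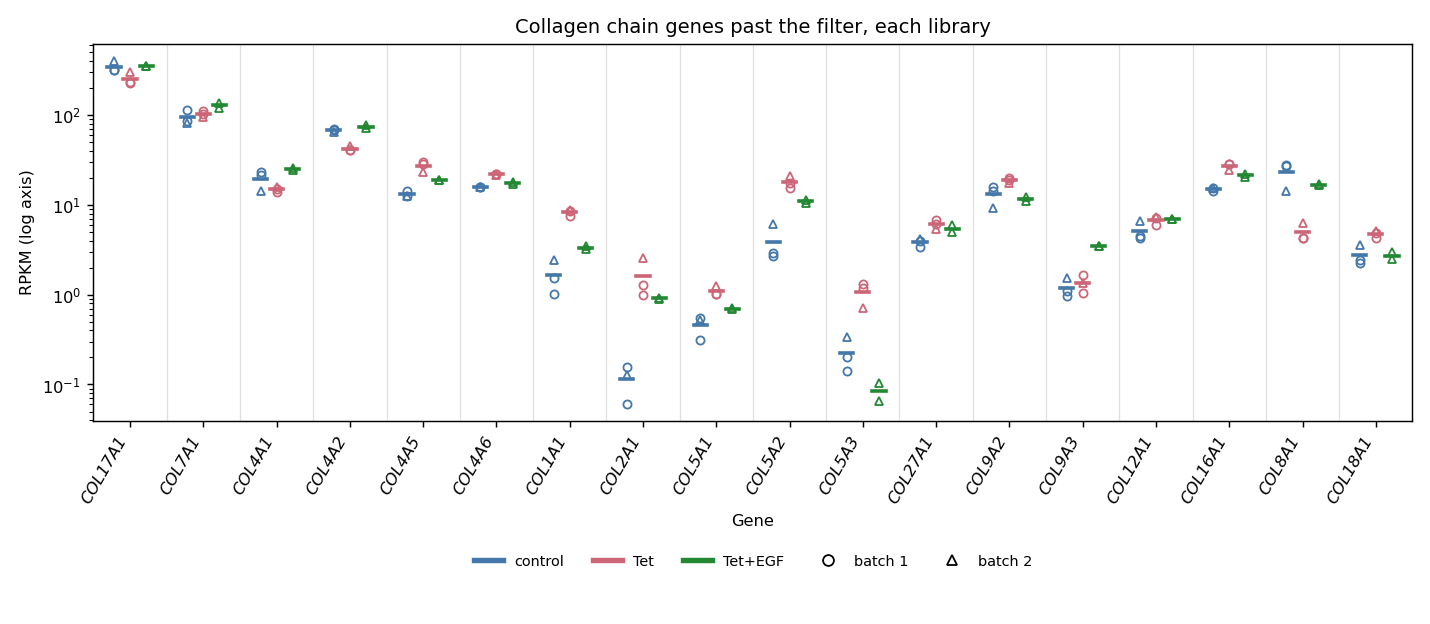
RPKM on a log axis (y) of the 18 tested collagen genes (x), 1 point per library, with circles for batch 1, triangles for batch 2 and a bar at each group's mean. COL17A1 lies between 225 and 398 RPKM, COL8A1 is lowest in Tet, and COL1A1, COL2A1, COL5A1, COL5A2 and COL5A3 are highest in Tet.

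Among 11 fibrillar collagen genes, 6 were tested. COL2A1, COL5A1 and COL5A3 were tested only because their Tet libraries reached 1 RPKM, so that their rise with Tet and their drop from Tet to Tet+EGF are descriptions. COL1A1, COL5A2 and COL27A1 reached 1 RPKM in every library and rose with Tet. COL5A2, a chain gene of collagen V, which joins and limits the width of collagen fibrils, was at 6.05, 2.69 and 2.92 RPKM in control, 21.1, 17.7 and 15.5 in Tet, and 10.6 and 11.2 in Tet+EGF. Groups did not overlap. It rose by 2.15 with Tet (SE 0.14, limma adjusted p = 3.8e-05), fell by 1.14 from Tet to Tet+EGF (SE 0.19, limma adjusted p = 0.00726), and was above control by 1.02 with EGF (SE 0.19, limma adjusted p = 0.00734). Without Tet+EGF replicate 1 the EGF fall was not called (limma adjusted p = 0.0567), nor with the replicate block (-0.81, 0.12) or without a batch term (-0.69, 0.207), and without replicate 2 the value against control was not called (0.0515). COL1A1, an alpha chain gene of collagen I, was at 2.41, 1.02 and 1.52 RPKM in control, 8.82, 7.50 and 8.51 in Tet, and 3.20 and 3.49 in Tet+EGF. Tet libraries were the highest. It rose by 2.07 with Tet (SE 0.16, limma adjusted p = 8.19e-05) and fell by 1.48 with EGF (SE 0.22, limma adjusted p = 0.00459). Against control its value with EGF was 0.60 (limma adjusted p = 0.0766), and it was called at 0.99 without control replicate 1 (0.0147).

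COL2A1, the cartilage collagen gene, was at 0.129, 0.061 and 0.158 RPKM in control, 2.58, 1.29 and 0.989 in Tet, and 0.889 and 0.929 in Tet+EGF. Treated libraries were all above control. The log2 fold change with Tet of 1.71 (SE 0.21, limma adjusted p = 0.000485) became 2.91 with a pseudocount of 0.1, since the pseudocount of 0.5 shrinks changes of low genes. COL2A1 was higher with EGF than in control by 0.88 (limma adjusted p = 0.0473). That value was 1.82 with a pseudocount of 0.1 and 0.52 with a pseudocount of 1, the latter not called (limma adjusted p = 0.104). With the replicate block (1.11, limma adjusted p = 0.0517) or no filter on low values (0.12) it was not called. Without control replicate 1 that value was 0.30 (limma adjusted p = 0.398), and the call was also lost without control replicate 2, Tet replicate 2 or either Tet+EGF library. From Tet to Tet+EGF, COL2A1 was at -0.84 (limma adjusted p = 0.0775), and at -1.13 without control replicate 1 (0.00516). COL5A3 was at 0.334, 0.202 and 0.142 RPKM in control, 0.703, 1.303 and 1.18 in Tet, and 0.105 and 0.066 in Tet+EGF. It was highest in Tet and lowest in Tet+EGF. Its changes given next are descriptions, since it was tested only through its Tet libraries. COL5A3 rose by 1.09 with Tet (SE 0.20, limma adjusted p = 0.00315) and fell by 1.32 with EGF (SE 0.26, limma adjusted p = 0.0153), the fall not being called without Tet+EGF replicate 1 (0.0814) or 2 (0.0942). With a pseudocount of 0.1 those values were 1.84 and -2.60, and with a pseudocount of 1 the fall was -0.84.

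COL5A1, which encodes a further chain of collagen V, was at 0.522, 0.314 and 0.544 RPKM in control, 1.25, 1.01 and 1.03 in Tet, and 0.686 and 0.712 in Tet+EGF. It rose by 0.74 with Tet (SE 0.14, limma adjusted p = 0.00342), or by 1.12 with a pseudocount of 0.1, again a description. COL27A1, a fibrillar collagen gene of cartilage, was at 4.11, 3.42 and 3.92 RPKM in control, 5.34, 6.12 and 6.80 in Tet, and 4.96 and 5.91 in Tet+EGF. It rose by 0.61 with Tet (SE 0.12, limma adjusted p = 0.00508), and its value of 0.49 between Tet+EGF and control did not pass (limma adjusted p = 0.0578, or 0.76 and 0.0157 without control replicate 1). Control libraries were lowest for both genes.

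COL1A2 and COL3A1, which fibroblasts express with COL1A1, were near 0, unlike COL5A2 above. COL1A2, the second chain gene of collagen I, was at or below 0.016 RPKM and COL3A1, the collagen III gene, at or below 0.026 in every library. Of 10 fibroblast markers listed, 4 passed the filter, and the summed level of the list was 27.3 to 48.1 RPKM in control, 124 to 129 in Tet and 41.0 to 45.0 in Tet+EGF. Between Tet and control DCN, a small proteoglycan gene, rose by 3.96 and MFAP5, a microfibril gene, by 2.11, TWIST2 fell by 1.36, and FAP was at 0.09 (limma adjusted p = 0.511). DCN reached 1 RPKM only in Tet libraries, at 7.04 to 9.01, and was at or below 0.081 in the others. It passed the filter through the group where it was high, so its rise is a description. MFAP5 made up most of the sum in Tet, at 105 to 109 RPKM, and was already at 14.5 to 32.4 in control. LUM, a small proteoglycan gene of collagen matrix, was at 0.015, 0 and 0 RPKM in control, 0.213, 0.194 and 0.187 in Tet, and 0.014 and 0.030 in Tet+EGF, high in Tet like DCN. THY1 was at 0.352, 0.228 and 0.395 RPKM in control, 0.094, 0.069 and 0.041 in Tet, and 0.061 and 0.105 in Tet+EGF, high in control. PDGFRA was at or below 0.014 RPKM, POSTN at or below 0.049, PDGFRB at or below 0.025 and DPT at 0 in every library. The part of these marker changes in the rise of the fibrillar genes was not tested.

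COL9A2, COL9A3, COL12A1 and COL16A1 passed the filter among collagens that sit on the surface of fibrils. COL16A1, a collagen gene expressed in keratinocytes as well as fibroblasts, was at 15.5, 14.4 and 15.3 RPKM in control, 24.5, 28.5 and 28.2 in Tet, and 20.4 and 22 in Tet+EGF. Groups did not overlap, and it rose by 0.83 with Tet (SE 0.08, limma adjusted p = 0.000203) and by 0.53 between Tet+EGF and control (SE 0.11, limma adjusted p = 0.0108). The latter was not called without Tet+EGF replicate 1 (limma adjusted p = 0.0524) or 2 (0.0844). Its value of -0.29 from Tet to Tet+EGF did not pass (limma adjusted p = 0.108) except without Tet replicate 1, at -0.47 (0.0115). COL9A2, a collagen IX gene, was at 9.22, 15.7 and 14.3 RPKM in control, 17.6, 19.9 and 18.9 in Tet, and 11.04 and 12.1 in Tet+EGF. It rose by 0.54 with Tet (SE 0.12, limma adjusted p = 0.00798), not called without a batch term (0.0549). Its value of -0.41 between Tet+EGF and Tet did not pass (limma adjusted p = 0.132), but passed at -0.59 without control replicate 1 (0.00354), and its value of 0.13 against control passed at 0.31 without Tet replicate 1 (0.0296). COL9A3, its partner in collagen IX, did not follow it. COL9A3 was at 1.53, 1.10 and 0.968 RPKM in control, 1.34, 1.65 and 1.03 in Tet, and 3.46 and 3.46 in Tet+EGF. It rose by 0.98 from Tet to Tet+EGF (SE 0.21, limma adjusted p = 0.0206) and by 1.09 against control (SE 0.21, limma adjusted p = 0.0091), while Tet and control overlapped. The first call was lost without Tet replicate 1 (limma adjusted p = 0.0753) and both without Tet+EGF replicate 1 (0.118 and 0.0598) or 2 (0.114 and 0.0586). COL12A1 rose by 0.39 with Tet (limma adjusted p = 0.0191). That rise was not called with the replicate number as a block (0.39, limma adjusted p = 0.0752) or without a batch term (0.107). Nor was it called without control replicate 2 or 3 or Tet replicate 2. Its levels were 6.55, 4.51 and 4.27 RPKM in control, 7.34, 7.08 and 5.93 in Tet, and 6.999 and 7.02 in Tet+EGF, so that control and Tet overlapped.

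COL8A1, a short-chain collagen gene known from vessel walls and the cornea, changed most among the genes that fell. It was at 14.1, 27.1 and 28.0 RPKM in control, 6.35, 4.23 and 4.23 in Tet, and 16.5 and 17.1 in Tet+EGF. Tet libraries lay below all others. It fell by 2.08 with Tet (SE 0.27, limma adjusted p = 0.000693), at -2.57 in batch 1 and -1.10 in batch 2, and rose by 1.83 with EGF (SE 0.36, limma adjusted p = 0.014), by 1.34 within batch 2. The rise was 2.81 without Tet replicate 1, and it was not called without Tet+EGF replicate 1 (limma adjusted p = 0.0751) or 2 (0.0775) or with no filter on low values (0.0707). Against control the EGF value of -0.25 was not called. Without control replicate 1, where the comparison runs through Tet, it was -1.23 (limma adjusted p = 0.000187). Without Tet replicate 1 it was called the other way, at 0.24 (limma adjusted p = 0.0337), which is the value within batch 2. The gap between these values is the difference between batches in the change with Tet, 1.47. COL18A1, a basement membrane collagen gene whose end fragment is endostatin, was at 3.61, 2.46 and 2.23 RPKM in control, 5.05, 4.26 and 4.83 in Tet, and 2.48 and 2.96 in Tet+EGF. Tet libraries lay above all others here. It rose by 0.69 with Tet (SE 0.12, limma adjusted p = 0.00282) and fell by 0.92 with EGF (SE 0.16, limma adjusted p = 0.00973), the latter not called without Tet+EGF replicate 1 (0.0821), with the replicate block (0.105) or without a batch term (0.0743).

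The other 29 genes did not pass the filter, and 22 of them stayed under 0.1 RPKM in every library. They include COL6A2 and COL6A3 of collagen VI, LAMA4 and LAMC3. LAMB4 and COL13A1 were picked from these after their values were seen. LAMB4, a little studied beta chain gene next to LAMB1, was at 0.021, 0 and 0 RPKM in control, 0.294, 0.224 and 0.253 in Tet, and 0.010 and 0.016 in Tet+EGF. COL13A1, a transmembrane collagen gene of cell contacts, was at 0.129, 0.273 and 0.279 RPKM in control, 0.018, 0 and 0 in Tet, and 0.627 and 0.739 in Tet+EGF. LAMB4 was high in Tet and COL13A1 in Tet+EGF, each without overlap, at levels well under those of the tested genes.

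Among 18 listed basement membrane partners 11 were tested. With Tet 6 rose and 1 fell (background 26.2% and 29.9%), with EGF against Tet 4 rose and 3 fell (9.82% and 9.15%), and with EGF against control 4 rose and 1 fell (16.0% and 16.2%). FN1, the fibronectin gene, was at 1495 ± 500 RPKM in control and 426 ± 115 in Tet (SD, n = 3 each). It fell by 1.79 with Tet and rose by 1.95 with EGF (limma adjusted p = 7.29e-06 and 6.17e-05). TINAGL1, a gene for a laminin-binding matricellular protein, rose with Tet by 0.57, and by a further 1.36 with EGF, to 353 ± 8.01 RPKM (SD, n = 2). NTN4, a netrin gene related to laminins, rose by 1.27 with Tet. With EGF, ECM1 rose by 0.71 against Tet and by 0.78 against control, and PXDN, the gene of a peroxidase that crosslinks collagen IV, rose by 1.36 against control. The change with Tet differed between batches by -0.86 for NTN4 and 0.87 for PXDN (batch 2 less batch 1). For FN1, TINAGL1 and ECM1 that difference was 0.19, 0.01 and 0.09. Batch 2 held 1 control and 1 Tet library. Values with a library left out are not given for partner genes.

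Of 17 listed matrix receptors and hemidesmosome genes 13 were tested, and 5 rose and 3 fell with Tet, 6 rose and 4 fell with EGF against Tet, and 6 rose and 2 fell against control, with the same backgrounds of 26.2% and 29.9%, 9.82% and 9.15%, and 16.0% and 16.2%. ITGA6 and ITGA3, which encode the alpha chains of keratinocyte laminin receptors, fell with Tet by 1.78 and 0.70. ITGA6 was at 164 ± 11.6 RPKM in control, 47.5 ± 3.45 in Tet (SD, n = 3 each) and 72.0 ± 1.98 in Tet+EGF (SD, n = 2), below control by 1.06 in the last. ITGA3 rose with EGF by 1.11 against Tet. DDR1, a collagen receptor kinase gene, rose with Tet by 1.64 and was higher with EGF than in control by 0.97. BCAM, a receptor gene for the LAMA5 chain, had log2 values with EGF of -1.90 against Tet and -1.53 against control, and ITGA2, of a collagen receptor, rose by 1.67 against Tet. Each of these changes had a limma adjusted p of at most 0.000422.

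Of 38 listed symbols of collagen synthesis and crosslinking genes, some of them older names of the same gene, 33 were in the table and 22 were tested. With Tet 6 rose and 4 fell (background 26.2% and 29.9%), with EGF against Tet 3 rose and 4 fell (9.82% and 9.15%), and against control 4 rose and 2 fell (16.0% and 16.2%), so that the share that rose with Tet was close to the background. LEPREL1, a prolyl 3-hydroxylase gene, rose by 1.72 with Tet, and LOXL1, a crosslinking oxidase gene, by 0.88, at levels under those of the laminins, 9.95 ± 3.07 and 4.74 ± 1.3 RPKM (SD, n = 3). P4HA1, a prolyl 4-hydroxylase gene, fell by 1.49 with Tet and was below control by 1.19 with EGF. P4HA2 fell by 0.75 and LOXL1 by 0.91 with EGF against Tet. TGM2, a transglutaminase gene, was higher with EGF by 3.35 against Tet and 2.73 against control in the fit with batch, although its mean levels were 12.4 ± 8.84 RPKM in control, 6.72 ± 3.83 in Tet (SD, n = 3 each) and 22.2 ± 0.793 in Tet+EGF (SD, n = 2). The SDs of TGM2 in control and Tet span batches 1 and 2, whereas the SE in the fit with batch was 0.25 for each of these EGF values. TLL1, a procollagen-processing protease gene, was higher with EGF by 1.35 against control. The largest limma adjusted p among the changes above was 0.00398. The change with Tet differed between batches by 0.97 for TGM2, 0.65 for P4HA1, -0.59 for LEPREL1 and 0.55 for TLL1 (batch 2 less batch 1). For P4HA2 and LOXL1 that difference was -0.05 and 0.03. Batch 2 held 1 control and 1 Tet library.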

How the data were processed

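Per the labels' protocols, poly(A) RNA gave 8 libraries, each read in its own lane of a Genome Analyzer IIx. The authors deposited 1 table of RPKM values with a column per library. TopHat 1.3.3 is named in the submitters' processing notes. The counter, build and annotation were not given in the sources used here. Coordinates of shown sequences are those of RefSeq.

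Genes with at least 1 RPKM in at least 2 libraries were kept (12567 of 21510). A limma 3.58.1 model (R 4.3.3, eBayes with trend) of log2(RPKM + 0.5) had group and batch terms and used all 8 libraries. Fold changes are on this log2 scale, two-sided, and Benjamini-Hochberg adjusted p-values run over all genes kept, with a threshold of 0.05. A batch by Tet interaction was fitted on the 6 control and Tet libraries. The fit was tested on simulated data. Relative depth is the mode of ratios between low values of a library pair.

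Whether replicate numbers pair control and Tet libraries cannot be told apart from batch. Deviations from group means correlated at 0.476, 0.314 and 0.338 at the same number. Numbers follow batch, however, and unlike numbers within batch 1 gave 0.272 and 0.334. A fit with the number as a block was therefore tried. It had no batch term, and it set Tet+EGF replicate 2, of batch 2, beside replicate 2 of control and Tet, of batch 1. In the comparisons of Tet+EGF this block thus does not take out batch.

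Members, lists and tests were chosen with earlier results of these data known. Values in every library are given for members past 5 RPKM in 1 library or called in a comparison, which was all 26 tested, except 1 that is counted but not reported here. Of each partner list the 3 smallest p-values per comparison are named. Python 3.11.15, numpy 2.4.6, pandas 2.3.3 and matplotlib 3.10.9 were used.

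Other marker lists were read alike. PECAM1 was at 0 in every library, CDH5 at or below 0.008 RPKM, PTPRC at or below 0.005 and TYR at 0. Of 6 endothelial markers 2 were tested (with Tet, 1 rose and 1 fell), of 5 leukocyte markers 2 (both fell with Tet and rose with EGF against Tet), and of 5 melanocyte markers none passed the filter. Of all tested genes 26.2% rose and 29.9% fell with Tet, and 9.82% rose with EGF against Tet.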

Additional observations from a re-analysis of the deposited data

Results flagged for a closer look

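For 6 of the 26 tested genes the change with Tet differed between batches by the interaction test of limma, against 17.9% of all tested genes. In batch 2 only 1 library of each group, control and Tet, stands behind it. For COL8A1 the fall was smaller in batch 2, at -1.10 against -2.57, a difference of 1.47 (limma adjusted p = 0.00335). LAMB3 fell more in batch 2, at -1.27 against -0.33, a difference of -0.95 (limma adjusted p = 0.00488). COL4A1 was at 0.12 in batch 2 and -0.60 in batch 1, a difference of 0.72 (limma adjusted p = 0.0232). LAMA5 and LAMB2 rose less in batch 2, with differences of -0.61 (limma adjusted p = 0.0187) and -0.66 (limma adjusted p = 0.0223). COL9A2 rose more in batch 2, at 0.90 against 0.36, a difference of 0.54 (limma adjusted p = 0.0478). Which property of the batches goes with these differences was not tested.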

How the results depend on the processing

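The fits were repeated with pseudocounts of 0.1 and 1, unfiltered, with a filter at mean RPKM 5, without batch, with the replicate block, after median-ratio scaling, with eBayes lacking the trend, with the compared groups only, by batch, and on leaving out each library. Every called member kept its sign under all of these. The share of all tested genes that was called moved with the setting too. For Tet+EGF against Tet, 9.15% of all genes were lower in the report. The share was 4.2% without a batch term, 3.36% with the replicate block and 14% with only the groups compared. In both comparisons of Tet+EGF the share fell without a Tet+EGF library and rose in batch 2 alone. Between Tet and control 11 to 21 genes were higher (16 in the report, 15 to 16 with 1 library left out) and 6 to 7 lower. The 11 were among 20 members at a mean RPKM of at least 5, where 26.1% of all genes were higher. The 21 were among 55 members with no filter, where 15.4% of all genes were higher. With the replicate block 14 were higher and 6 lower, and the calls of COL12A1 and LAMB1 were lost. Tet+EGF against Tet gave 4 to 8 higher and 1 to 10 lower genes with 1 library left out, the fewest without a Tet+EGF library (4 and 4 higher, 1 and 3 lower). The count of lower genes (7 in the report) was 4 at a mean RPKM of at least 5, 3 without a batch term, 2 with the replicate block (COL4A6, COL5A2, LAMB2, COL4A1, LAMA5 and COL18A1 lost their calls), 11 with only the groups compared and 12 in batch 2 alone. Tet+EGF against control gave 4 to 14 higher genes with 1 library left out, with 5 and 4 when Tet+EGF replicate 1 or 2 was left out, and 0 to 2 lower. The lower count was 2 with no filter, 1 with only the groups compared and 2 in batch 2 alone. The interaction called 3 genes in eBayes without trend (6 in the report), 7 with a pseudocount of 0.1 or with no filter, and 8 of 20 at a mean RPKM of at least 5. It called 6 with a pseudocount of 1 or median-ratio scaling. Of all genes 3.87% were higher and 7.52% lower in eBayes without trend. These shares were 9.2% and 19.4% at a mean RPKM of at least 5, against 6.11% and 11.8% in the report. The replicate numbers of Tet+EGF gave deviations correlated at -0.31 to -0.137 with the same-numbered libraries, so that there too the numbers are not known to pair libraries. Leaving out the 3 genes that passed the filter through 1 group only, chosen after seeing the data, kept every count within 1.5 times.

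Only differences that were not called in the report changed sign. Between Tet and control, COL9A3 was at -0.06 without Tet replicate 2, in a leave-one-out range of -0.06 to 0.25. Between Tet+EGF and Tet, COL12A1 was at 0.05 without a batch term, LAMB1 at -0.01 with median-ratio scaling and -0.03 in batch 2, with only the groups compared and without control replicate 1 (0.00 without control replicate 3, -0.01 without Tet replicate 3), and COL27A1 at 0.02 in batch 2, with only the groups compared and without control replicate 1. Between Tet+EGF and control, COL9A2 was at -0.14 without a batch term, -0.09 with the replicate block and -0.23 without control replicate 1. COL8A1 was at 0.24 and LAMB2 at -0.11 in batch 2, with only the groups compared and without Tet replicate 1, and COL8A1 was then called (limma adjusted p = 0.0294, 0.0248 and 0.0337). COL17A1 was at 0.04 without a batch term, and without control replicate 1 COL4A2 was at -0.04, COL5A3 at 0.34 and COL18A1 at 0.04. Over all single left-out libraries the ranges were -0.38 to 0.02 for COL27A1, -0.23 to 0.31 for COL9A2, -1.23 to 0.24 for COL8A1, -0.11 to 0.55 for LAMB2, -0.04 to 0.19 for COL4A2, -0.51 to 0.34 for COL5A3 and -0.36 to 0.04 for COL18A1. Between Tet+EGF and control, the values without control replicate 1 ran through Tet. They differ from those within batch 2 by the batch by Tet difference, at 1.47 for COL8A1, -0.66 for LAMB2 and 0.54 for COL9A2. The causes of the batch differences and of the other sign changes were not tested. Read counts per library are not known, so no counting interval is given for genes near 0.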
